A study of Rattus norvegicus with 12 samples.

Results

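The genes described here are 47 listed genes of cholesterol synthesis, fatty acid synthesis and lipoprotein handling, listed by name, with no measured value in the rule. Every probe set that the array annotation assigned to exactly 1 gene of the list was taken, which gave 81 probe sets for 46 genes of the 31042 probe sets in the table, controls left out. The expression of Hmgcs1 was not analysed here. Of the 46 genes, 45 passed the filter on low values (above 6.61 on the log2 scale in at least 5 arrays), and 36 of these 45 varied between arrays. The other 9 were near-constant (SD over the 12 arrays under 0.01) in the probe set that stands for the gene, which is the probe set with the highest mean. The 9 were Mvk, Ebp, Nsdhl, Sc5d, Srebf2, Insig2, Abca1, Elovl6 and Fads2. A near-constant value says nothing here about whether a transcript changed, since strongly expressed brain genes such as Mbp were near-constant too. A member may have passed the filter, or have counted as varying, only because it was high in 1 group, so the tested genes do not stand for all members.

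The animals were 12 male Sprague-Dawley rats, 8 weeks old, each measured on 1 messenger RNA array. Blood flow through the middle cerebral artery had been blocked and restored in 7 of them (MCAO, which models ischemic stroke), and the other 5 were sham-operated (Sham). The left hemisphere was taken 24 h after reperfusion. The labels give neither the occluded side nor the length of the occlusion, so how much infarct tissue the samples held is unknown. Any infarct was not separated from spared tissue, and fewer cells of a type cannot be told apart from less RNA per cell. The rats are separate animals, and the only comparison the design holds is MCAO against Sham.

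Cholesterol in the brain is made locally, because plasma lipoproteins hardly cross the blood-brain barrier. Its synthesis runs from acetyl-CoA through mevalonate, isoprenoids and squalene to lanosterol and then cholesterol. Transcription of these enzymes is driven by the sterol regulatory element binding proteins, which are held back by the Insig proteins while sterols are plentiful. Astrocytes pass cholesterol to other cells on ApoE particles loaded by the ABC exporters, surplus cholesterol is esterified and stored in lipid droplets, and neurons remove it as an oxysterol. Myelin-forming cells and phagocytes that take up myelin debris are both known for a large cholesterol turnover.

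Lipid droplet, fatty acid carrier and oxysterol genes were the members with the largest rises in MCAO. Plin2 was 5.92-fold, Ch25h 2.71-fold, Fabp5 1.91-fold and Fabp7 1.77-fold higher in MCAO than in Sham. A few sterol synthesis enzymes rose less, with Idi1 1.55-fold higher. Lcat, Lpl, Apoe, the exporter gene Abcg1 and the cholesterol hydroxylase gene Cyp46a1 fell, as did Srebf1 and the fatty acid synthesis genes Acaca and Scd2. Of the 36 varying member genes 8 were higher in MCAO (22.2%), against 35.2% of the 6339 varying genes of the whole table, and 10 were lower (27.8%), against 34.2% (limma, Benjamini-Hochberg adjusted p under 0.05). Both shares lay below those of all genes, and that difference was not tested. The median log2 change of the 36 was 0.02, against 0.03 for all varying genes. Of the 36 varying members, 6 rose with every MCAO value above every Sham value, against 1131 of the 6339 varying genes (17.8%). Another 3 of the 36 fell with every MCAO value under every Sham value, against 1029 of the 6339 (16.2%). These differences were not tested.

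**Figure D1:**
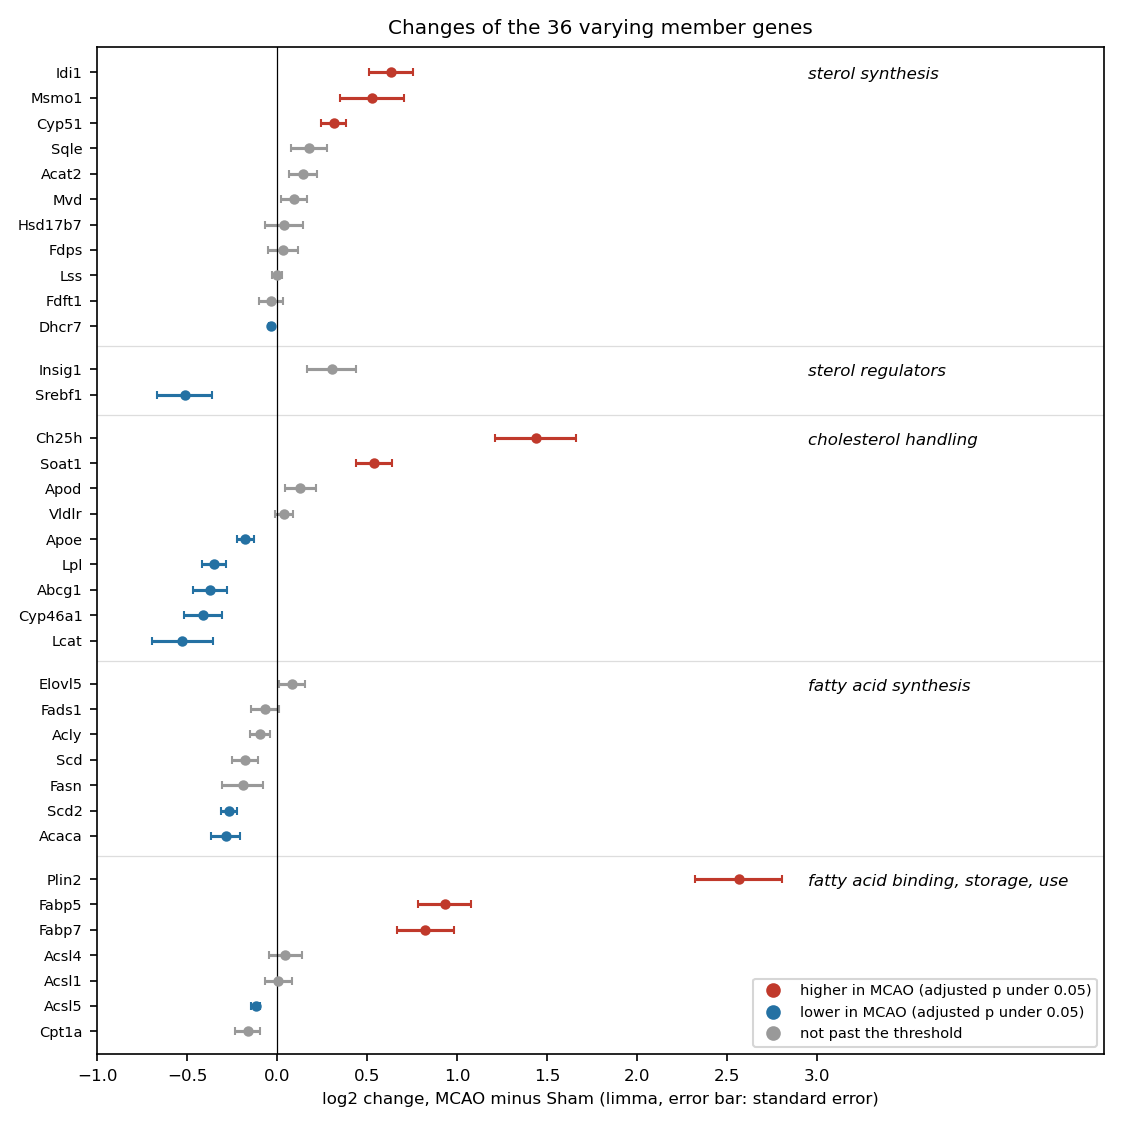
Log2 change (MCAO minus Sham, horizontal axis) of the 36 varying member genes, grouped by role, with the standard error of the limma fit from 7 MCAO and 5 Sham rats. Red and blue points passed the adjusted threshold upward and downward. Plin2 lies farthest right at 2.57, and Lcat and Srebf1 lie farthest left at -0.53 and -0.51.

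The sterol synthesis enzymes were followed first. Of the 16 listed, 15 were tested and 11 varied: 3 rose, 1 fell and 7 did not pass, with a median log2 change of 0.09. Thus 27.3% rose and 9.1% fell, against 35.2% and 34.2% of all varying genes, differences that were not tested. Those that rose were Idi1, which makes the branched isoprenoid unit, Cyp51, which demethylates lanosterol, and Msmo1, which removes further methyl groups from sterols. The bases just before the RefSeq start of these 3 genes in build GRCr8 are printed next, because they are the sterol enzymes that passed upward. Whether they moved together was not tested. The windows are chr17:66547525-66547774 (minus strand), chr4:30991443-30991692 (plus strand) and chr16:29746863-29747112 (plus strand). Each is written 5′ to 3′ on the gene's strand, and capitals mark CCAAT boxes on either strand, the letters bound by NF-Y, a known partner of the sterol regulatory element binding proteins.

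Idi1: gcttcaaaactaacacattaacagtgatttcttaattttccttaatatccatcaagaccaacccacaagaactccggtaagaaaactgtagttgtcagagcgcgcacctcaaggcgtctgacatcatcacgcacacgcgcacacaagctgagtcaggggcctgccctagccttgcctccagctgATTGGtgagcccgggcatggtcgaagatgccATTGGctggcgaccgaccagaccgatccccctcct

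Cyp51: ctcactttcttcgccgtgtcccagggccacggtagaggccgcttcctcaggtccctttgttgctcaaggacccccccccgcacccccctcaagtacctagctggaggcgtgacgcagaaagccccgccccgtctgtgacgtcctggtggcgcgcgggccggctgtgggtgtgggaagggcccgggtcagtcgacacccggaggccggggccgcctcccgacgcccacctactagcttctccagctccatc

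Msmo1: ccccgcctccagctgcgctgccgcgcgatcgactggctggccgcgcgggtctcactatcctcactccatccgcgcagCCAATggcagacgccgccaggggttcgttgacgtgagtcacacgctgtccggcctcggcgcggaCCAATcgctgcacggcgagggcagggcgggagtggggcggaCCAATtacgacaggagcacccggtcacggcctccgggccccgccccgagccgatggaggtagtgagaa

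Idi1 held 2 and Msmo1 held 3 CCAAT boxes, and Cyp51 held none. Among the 14 sterol enzyme windows that RefSeq gives, 11 held CCAAT or its reverse complement within 250 bases before the start (78.6%), against 34.0% of all 33469 windows. Over all members, 39 of 47 genes matched with 43 windows, of which 26 held it (60.5%). The 8 with no entry were Abcg1, Acaca, Elovl6, Fabp5, Fasn, Fdft1, Lpl and Sqle. A sterol regulatory element spelled TCACNCCAC, on either strand, was in 0 of the 43 windows and in 0.974% of all. An E-box spelled CACGTG was in 5 of the 43 windows (11.6%), among them those of Insig1, Plin2 and Sc5d, and in 5.59% of all. None of the 3 motifs contains another, and these shares are descriptions of the windows.

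Idi1 had log2 signals from 9.32 to 10.06 with a median of 9.88 in MCAO rats, and of 9.07, 9.06, 9.13, 9.26 and 9.36 in Sham rats. The lowest MCAO value, that of MCAO 4, lay just under the highest Sham value, and the other 6 MCAO rats lay above all Sham rats. The log2 change was 0.63 ± 0.12 (standard error, as for later changes; limma adjusted p = 0.00319). A second Idi1 probe set gave 0.55 ± 0.12.

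Cyp51 ranged from 10.59 to 10.93 with a median of 10.73 in MCAO rats, and measured 10.30, 10.39, 10.58, 10.58 and 10.38 in Sham rats. All MCAO values lay above all Sham values, though MCAO 4 and the highest Sham rats almost touched. Its log2 change was 0.31 ± 0.07 (limma adjusted p = 0.00519). This value comes from a probe set whose name marks it as shared by several transcripts (_s_at), and the other Cyp51 probe set was near-constant.

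For Msmo1 the MCAO values ran from 10.32 to 11.45 with a median of 11.21, and the Sham values were 10.33, 10.55, 10.66, 10.78 and 10.55. MCAO 4 was the lowest of all 12 rats, while the other 6 MCAO rats exceeded every Sham rat. The log2 change was 0.53 ± 0.18 (limma adjusted p = 0.0345). The call was lost in 10 of the 12 fits that left out 1 rat (any rat but MCAO 4 or Sham 4), with adjusted p up to 0.0803. Without MCAO 4 the change was 0.66 with an adjusted p of 0.000696.

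The member called lower in this pathway was Dhcr7, the reductase of the last step, but its change was only -0.04 ± 0.01 with overlapping groups (limma adjusted p = 0.0258). That call was lost without Sham 2, without Sham 3 or without Sham 4 (adjusted p = 0.0668 at most) and when near-constant probe sets were left out of the fit (adjusted p = 0.334). The squalene epoxidase gene Sqle had a log2 change of 0.18 (95% interval -0.05 to 0.40), and Acat2, the thiolase at the entry of the pathway, had 0.14 (-0.03 to 0.32). For Fdps, which makes farnesyl diphosphate, the interval was -0.15 to 0.22, and for the squalene synthase gene Fdft1 it was -0.18 to 0.11. The decarboxylase gene Mvd (0.09) and the lanosterol synthase gene Lss (-0.00066) did not pass either. For Lss the interval, -0.07 to 0.07, was the narrowest among the enzymes that did not pass.

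For 2 sterol enzymes the result depended on the probe set. Hsd17b7, a ketoreductase of the demethylation complex, changed by 0.04 ± 0.11 in the probe set that stands for it. Its other probe set rose by 0.48 ± 0.11 with all MCAO rats above all Sham rats (7.27 to 8.00 against 7.15 to 7.27; limma adjusted p = 0.00771 over probe sets). The desaturase gene Sc5d was near-constant in 2 probe sets, while its remaining probe set rose by 0.22 ± 0.06 (limma adjusted p = 0.0189 over probe sets).

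Oligodendrocyte markers are given beside these enzymes. Of 10 listed markers 9 were tested and 8 varied, of which 0 were higher and 2 lower (25%) in the same limma fit. Among all varying genes 35.2% were higher and 34.2% lower. Their mean log2 level spanned 10.37 to 10.80 in MCAO rats and 10.52 to 10.98 in Sham rats. The part of these cells in the enzyme values was not tested.

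Of the 5 sterol regulators 4 were tested and 2 varied, of which 1 fell and 1 did not pass. Of all varying genes 35.2% rose and 34.2% fell. Srebf1, the factor that mainly drives fatty acid synthesis genes, ranged from 7.72 to 8.76 with a median of 8.23 in MCAO rats, and measured 8.57, 8.95, 8.97, 8.62 and 8.67 in Sham rats. The highest MCAO value was that of MCAO 4, inside the Sham range, and the other 6 MCAO rats lay below all Sham rats. It fell by 0.51 on the log2 scale (SE 0.15; limma adjusted p = 0.0207), and the call was lost without Sham 2 or without Sham 3 (adjusted p = 0.0561 at most).

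Insig1, which retains the sterol sensor in the endoplasmic reticulum and is itself a target of the pathway, had values from 9.66 to 10.56 with a median of 10.09 in MCAO rats, and of 9.55, 9.84, 9.85, 9.92 and 9.81 in Sham rats. The groups overlapped through MCAO 3 and MCAO 4, and the other 5 MCAO rats exceeded every Sham rat. The log2 change of 0.30 did not pass (95% interval -0.00035 to 0.61, limma adjusted p = 0.0967). Of the 12 fits that left out 1 rat, Insig1 passed only in that without MCAO 4 (0.38, limma adjusted p = 0.0235). In the others the limma adjusted p reached 0.209. Srebf2 and Insig2 were near-constant. Nr1h3, the oxysterol receptor LXR alpha, failed the filter, with log2 signals of 6.40 to 6.69 in MCAO rats and 6.28 to 6.46 in Sham rats.

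**Figure D2:**
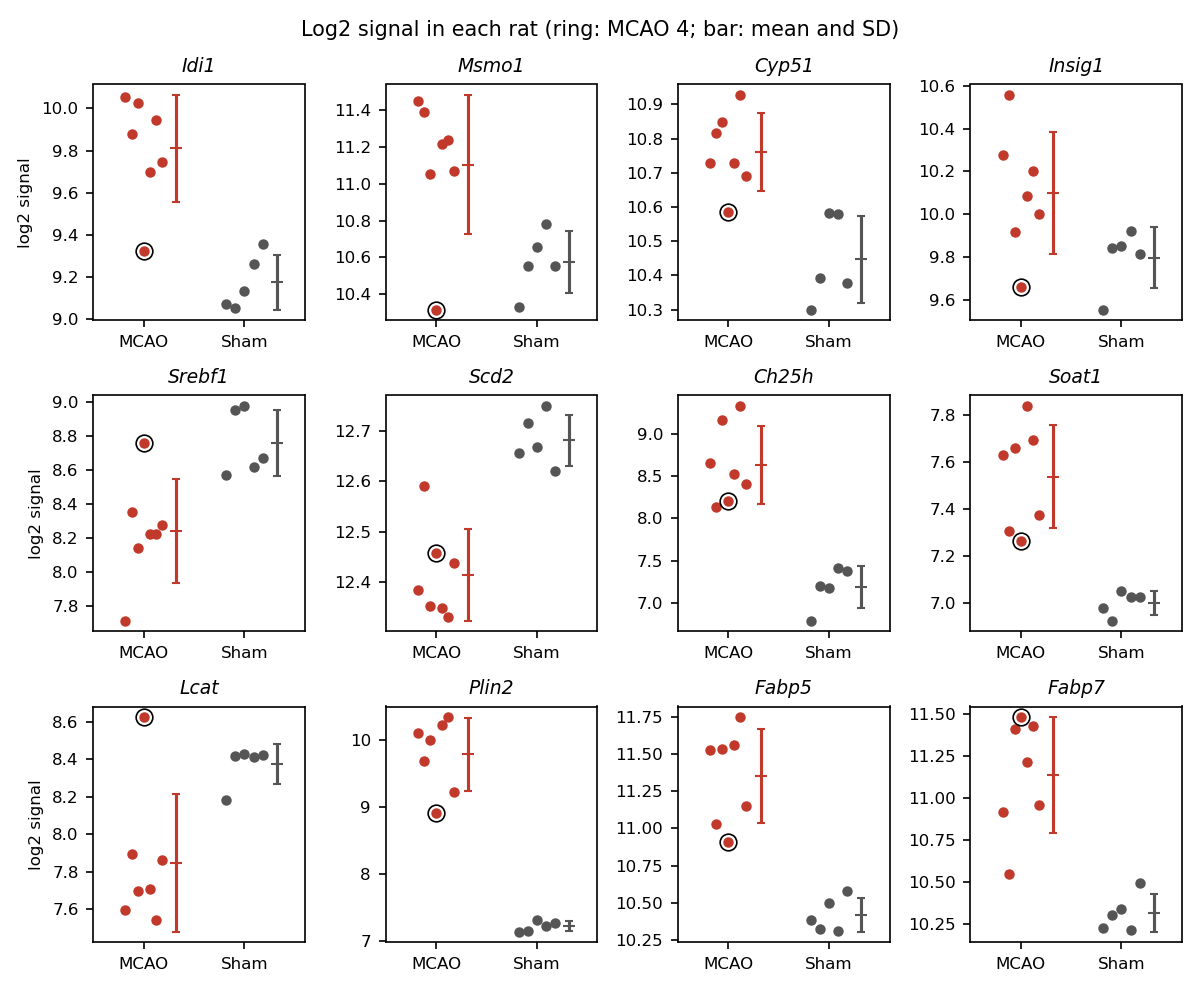
Log2 signal (vertical axis, a separate scale for each gene) of 12 member genes in each rat, MCAO left and Sham right, with the mean and SD beside the points and a ring around MCAO 4. For Plin2 every MCAO rat is at 8.91 or more and every Sham rat at 7.32 or less, whereas for Msmo1, Srebf1 and Lcat the ringed rat lies with the Sham rats or beyond them.

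Lipoprotein, transport and storage genes of cholesterol moved in both directions. Of the 10 listed all were tested and 9 varied: 2 rose, 5 fell and 2 did not pass, with a median log2 change of -0.18. Thus 22.2% rose and 55.6% fell, against 35.2% and 34.2% of all varying genes, differences that were not tested. The 2 that rose were Ch25h and Soat1. Ch25h, which hydroxylates the cholesterol side chain and is induced in activated phagocytes, ranged from 8.13 to 9.33 with a median of 8.52 in MCAO rats, and measured 6.79, 7.20, 7.18, 7.42 and 7.38 in Sham rats. No MCAO value came near the Sham values. Its log2 change was 1.44 ± 0.22 (limma adjusted p = 0.0016).

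Soat1, which esterifies cholesterol for storage in droplets, ran from 7.26 to 7.84 with a median of 7.63 in MCAO rats, and stood at 6.98, 6.92, 7.05, 7.03 and 7.02 in Sham rats. All MCAO rats were above all Sham rats. The log2 change was 0.54 ± 0.10 (limma adjusted p = 0.00284), and a second probe set was near-constant.

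Those that fell were Lcat, Lpl, Cyp46a1, Abcg1 and Apoe. Lcat, which esterifies cholesterol on lipoprotein particles, had values from 7.54 to 8.62 with a median of 7.71 in MCAO rats, and of 8.18, 8.42, 8.43, 8.41 and 8.42 in Sham rats. MCAO 4 was the highest of all 12 rats, and the other 6 MCAO rats were below every Sham rat. Lcat fell by 0.53 on the log2 scale (SE 0.17; limma adjusted p = 0.0274). Leaving out MCAO 1, MCAO 3, MCAO 5, MCAO 6, Sham 2, Sham 3, Sham 4 or Sham 5 ended the call (adjusted p = 0.0604 at most), and without MCAO 4 the change was -0.66 with an adjusted p of 0.000221.

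Lpl, the lipase that frees fatty acids from lipoproteins, ranged from 7.84 to 8.23 in MCAO rats and from 8.32 to 8.48 in Sham rats, with no overlap (log2 change -0.35 ± 0.07; limma adjusted p = 0.00353). Cyp46a1, the neuronal enzyme that turns cholesterol into an oxysterol able to leave the brain, fell by 0.41 on the log2 scale (limma adjusted p = 0.0106), with MCAO 4 at 9.66 inside the Sham range. The exporter gene Abcg1 fell by 0.37, and its second varying probe set fell by 0.34 with all MCAO rats below all Sham rats. Apoe, which encodes the main apolipoprotein of brain, fell by 0.18 (limma adjusted p = 0.0144).

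Abca1, the exporter that loads ApoE, was near-constant in the probe set that stands for it. Its 2 varying probe sets rose by 0.24 ± 0.06 and 0.30 ± 0.09 (limma adjusted p over probe sets of 0.0117 and 0.019), opposite in sign to Abcg1. A difference between the 2 exporters was not tested. The lipocalin gene Apod had a log2 change of 0.13 (95% interval -0.06 to 0.32). Vldlr, a receptor for ApoE particles and reelin, changed by 0.04 in the probe set that stands for it and by 0.05 in another, while 1 more fell by 0.25 with all MCAO rats below all Sham rats (limma adjusted p = 0.00229 over probe sets).

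**Figure D3:**
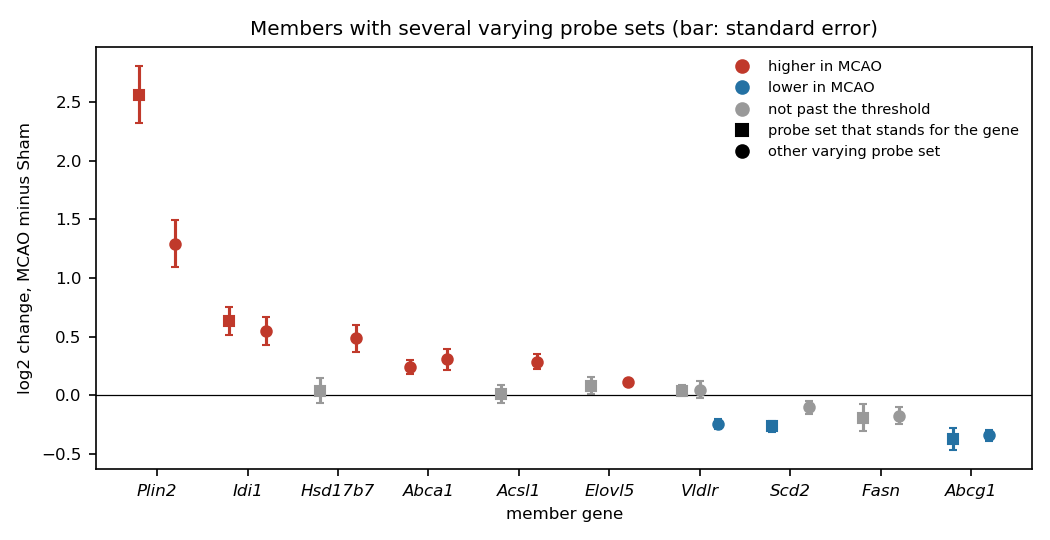
Log2 change (MCAO minus Sham, vertical axis) with its standard error for the 10 member genes that have several varying probe sets, 21 probe sets in all. Squares mark the probe set that stands for the gene. Both varying probe sets of Plin2, of Idi1, of Abca1 and of Abcg1 passed in the same direction, whereas those of Hsd17b7, Acsl1, Elovl5, Vldlr and Scd2 differed in whether they passed.

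Fatty acid synthesis genes had mostly negative changes. Of 9 tested genes 7 varied, 0 rose (limma, and 0 at an unadjusted p under 0.05), 2 fell and 5 did not pass, with a median log2 change of -0.18. The 2 that fell made 28.6% of the 7, below the 34.2% of all varying genes that fell, and 35.2% of all varying genes rose. These differences were not tested. Scd2, the main stearoyl-CoA desaturase of brain, ranged from 12.33 to 12.59 with a median of 12.38 in MCAO rats, and measured 12.66, 12.72, 12.67, 12.75 and 12.62 in Sham rats. The groups did not overlap, and the log2 change was -0.27 ± 0.04 (limma adjusted p = 0.00193). A second varying probe set of Scd2 had -0.11 and did not pass.

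Acaca, the carboxylase that commits acetyl-CoA to fatty acid synthesis, had values from 8.83 to 9.20 with a median of 9.01 in MCAO rats, and of 9.14, 9.45, 9.39, 9.36 and 9.12 in Sham rats. MCAO 2 lay inside the Sham range, and the other 6 rats below it. It fell by 0.29 on the log2 scale (SE 0.08; limma adjusted p = 0.0153). Fasn, the fatty acid synthase, had -0.19 (95% interval -0.44 to 0.06), and its other varying probe set -0.18, neither of which passed. Of the 12 fits that left out 1 rat, Fasn passed only in that without MCAO 2 (-0.26, limma adjusted p = 0.0315). In the others the limma adjusted p of Fasn reached 0.375. Scd, a second desaturase gene, had -0.18 with an interval of -0.34 to -0.02 (limma adjusted p = 0.0676). Acly, which supplies acetyl-CoA (-0.10), the desaturase gene Fads1 (-0.07) and the elongase gene Elovl5 (0.08) did not pass. A second Elovl5 probe set rose by 0.11 ± 0.03 (limma adjusted p = 0.0084 over probe sets).

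Genes of fatty acid binding and storage held the largest change. All 7 tested genes varied, of which 3 rose, 1 fell and 3 did not pass, with a median of 0.05. Thus 42.9% rose and 14.3% fell, against 35.2% and 34.2% of all varying genes, differences that were not tested. Plin2, the coat protein of lipid droplets, ranged from 8.91 to 10.34 with a median of 9.999 in MCAO rats, and measured 7.14, 7.15, 7.32, 7.23 and 7.27 in Sham rats. The Sham rats lay close together, and the MCAO rats were spread widely and far above them. The log2 change was 2.57 ± 0.24 (limma adjusted p = 0.000243). A second Plin2 probe set also separated the groups, with a smaller change of 1.29 ± 0.20.

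Fabp5, a fatty acid carrier of many cell types, had values from 10.91 to 11.75 with a median of 11.53 in MCAO rats, and of 10.38, 10.33, 10.50, 10.31 and 10.58 in Sham rats. Fabp7, the brain-type carrier of astroglia and neural progenitors, ranged from 10.55 to 11.48 with a median of 11.21 in MCAO rats, and measured 10.23, 10.30, 10.34, 10.22 and 10.49 in Sham rats. All MCAO rats exceeded all Sham rats for both genes, though for Fabp7 MCAO 2 came close to the highest Sham rat. The log2 changes were 0.93 ± 0.15 for Fabp5 (limma adjusted p = 0.00164) and 0.82 ± 0.16 for Fabp7 (limma adjusted p = 0.00321).

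Of the enzymes that activate fatty acids, Acsl5 fell by a small 0.12 (limma adjusted p = 0.00416) with no overlap of the groups. Acsl4 had a change of 0.05 (95% interval -0.16 to 0.25). Acsl1 changed by 0.01 in the probe set that stands for it, and a second probe set rose by 0.28 ± 0.06 with all MCAO rats above all Sham rats (limma adjusted p = 0.00703 over probe sets). Cpt1a, the gate of mitochondrial fatty acid import, had -0.16 and did not pass (95% interval -0.32 to -0.01, limma adjusted p = 0.077). Of the 12 fits that left out 1 rat, it passed only in that without MCAO 4 (-0.21, limma adjusted p = 0.00442). In the others its limma adjusted p reached 0.150.

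Counted by probe set, 49 varying member probe sets were tested. Of these 16 were higher in MCAO (32.7%), against 37% of all varying probe sets (limma over probe sets). Another 12 were lower (24.5%), against 30.7%, and these differences were not tested. The median change was 0.04, against 0.06 for all varying probe sets. Probe sets of a gene share their target and are not replicates.

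Markers of other cell types were compared between MCAO and Sham in the same limma fit. Among all varying genes 35.2% were higher and 34.2% lower. All 8 varying markers of activated microglia and macrophages (9 listed) were higher, with a mean log2 level of 8.50 to 9.52 in MCAO rats and 7.13 to 7.31 in Sham rats, and so were all 4 varying of 8 listed neutrophil and monocyte markers (7.19 to 8.43 against 6.44 to 6.66). The 6 varying reactive astrocyte markers, of 7 listed, were all higher (9.31 to 10.37 against 7.76 to 7.95), while 4 of 6 varying general astrocyte markers (8 listed) were lower (9.77 to 10.28 against 10.29 to 10.34). Of 9 neuron markers 5 were lower and 0 higher (10.50 to 10.83 against 10.89 to 11.02). Resting microglia markers ran the other way from the activated ones, with 2 of 3 varying markers lower (5 listed; 7.01 to 7.79 against 7.94 to 8.26). Endothelial and pericyte markers were mixed, with 2 of 5 varying markers higher and 1 lower (8 listed; 8.17 to 8.41 against 8.30 to 8.53). The 2 varying erythroid markers, of 4 listed, did not pass (9.18 to 9.90 against 9.17 to 10.11). No marker is at 0 on this scale, and the part of these cells in the changes of Plin2, Ch25h, Soat1, Fabp7, Cyp46a1 and the other members was not tested.

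The MCAO rats differed among themselves. For 31 of the 36 varying members the SD was larger in MCAO than in Sham (86.1%, and 89.4% of all varying genes). Over the 18 members that passed, MCAO 4 was the least changed of the 7 MCAO rats in 12 and MCAO 2 in the other 6. For 7 of the 18 MCAO 4 did not lie beyond the Sham rats in the direction of the change. It lay inside the Sham range for Idi1, Srebf1, Apoe, Abcg1 and Cyp46a1, and beyond it on the opposite side for Msmo1 and Lcat. The most changed rat was MCAO 1 in 7 members and MCAO 6 in 6. These ranks were not counted over all genes, so whether they are particular to the members is unknown.

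That order was not the same for each gene. Fabp7 was highest in MCAO 4, whereas Plin2, Fabp5, Soat1, Idi1, Cyp51 and Msmo1 were lowest there among MCAO rats. The mean difference from Sham over the 8 members that rose was 0.58 in MCAO 4 and 0.78 to 1.29 in the other MCAO rats. Over the 10 that fell it was -0.07 in MCAO 4, close to that of the lowest Sham rat, and -0.20 to -0.48 in the other MCAO rats. MCAO 4 also had the lowest reactive astrocyte level of the MCAO rats (9.31) and the highest general astrocyte level (10.28), while the lowest phagocyte level was that of MCAO 2 (8.50). Without MCAO 4, 9 members were higher and 11 lower.

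**Figure D4:**
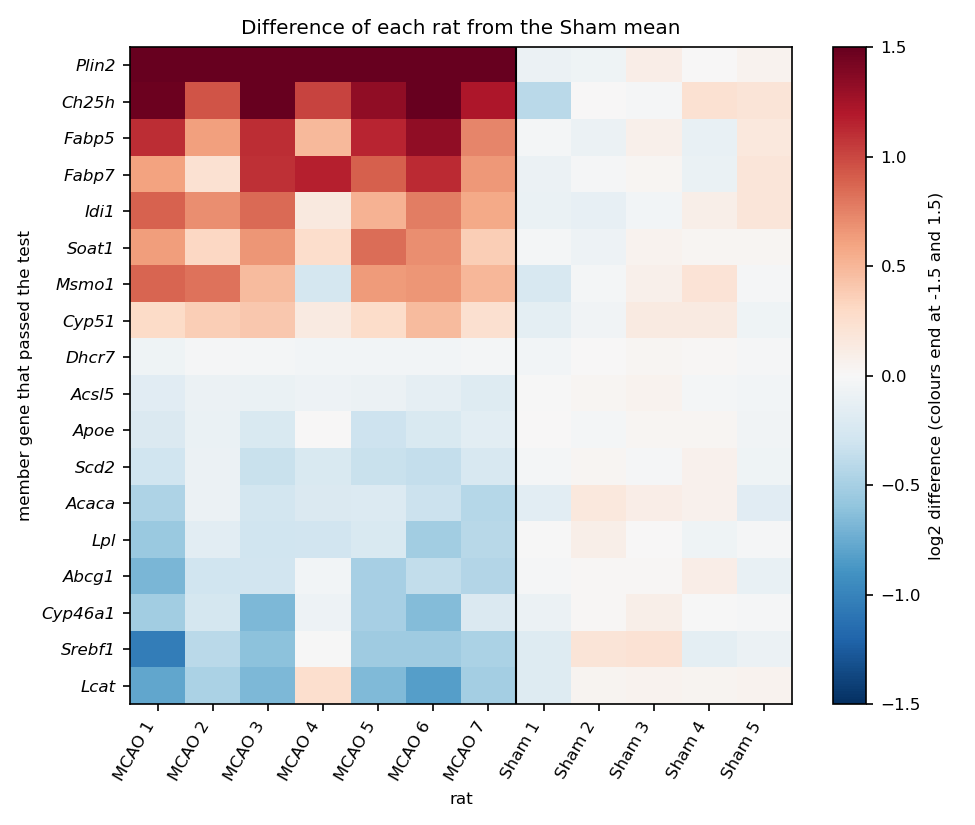
Log2 difference of each rat (columns, MCAO left and Sham right) from the Sham mean for the 18 member genes that passed the test (rows, ordered by log2 change), with colours ending at -1.5 and 1.5. MCAO 4 is pale or of the opposite colour for Idi1, Msmo1, Srebf1, Apoe, Abcg1, Cyp46a1 and Lcat, and is red for Fabp7.

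Other genes of the same pathways, 69 from a list of sterol, lipoprotein and fatty acid genes, gave 55 tested and 32 varying genes. Of these 7 were higher (21.9%), against 35.2% of all varying genes, and 11 were lower (34.4%), close to the 34.2% of all varying genes. Their median log2 change was -0.12, against 0.03 for all varying genes, and these differences were not tested. The strongest rises by the limma statistic were those of Clu, an apolipoprotein of astrocytes (0.40 ± 0.04; limma adjusted p = 0.000422), and Hacd1, a dehydratase of very long chain fatty acid elongation (0.52 ± 0.08). The strongest falls were those of Lpin2, a phosphatidate phosphatase of triglyceride synthesis (-0.29 ± 0.04), and Hacd3, another elongation dehydratase (-0.30 ± 0.05).

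The arrays were alike in level, with medians between 7.23 and 7.27. The largest difference between MCAO and Sham in a spike-in control was 0.26 on the log2 scale, and 3 of the 18 called members (Dhcr7, Apoe and Acsl5) had changes no larger than that. For beta-actin, a check of RNA integrity, the 3′ signal exceeded the 5′ signal by 1.36 ± 0.07 log2 units in MCAO (SD, n = 7), against 1.43 ± 0.03 in Sham (SD, n = 5; exact two-sided permutation p = 0.077). Without MCAO 4 the groups differed by -0.083 (exact permutation p = 0.0152). With any other rat left out the difference did not pass (exact permutation p up to 0.152), and the part of RNA integrity in the results was not tested.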

How the data were processed

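Per the labels' protocols, 100 ng of total RNA per rat went into biotin-labelled cRNA. The deposited table holds log2 values made by the authors for 31099 probe sets; the log base is judged from their range (5.00 to 14.01). How they were normalized is not given in the sources used here; they were used as deposited. Gene names came from the platform annotation. Probe sets with several genes (436) or none (9780) were not used.

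A probe set was kept if at least 5 arrays exceeded the 25th percentile (6.61), and the one with the highest mean stood for each of 12153 genes. The comparison of MCAO with Sham used lmFit and eBayes of limma 3.58.1 under R 4.3.3 (eBayes with trend, two-sided; Benjamini-Hochberg over all genes, threshold 0.05), and again over all 1-gene probe sets. Errors are standard errors unless named SD. Near-constant means an SD under 0.01 over the 12 arrays, which 19397 probe sets had.

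Simulated data with known changes served to test the fit. It recovered 32% of simulated log2 changes of 0.25 and 68% of those of 0.5. For changes of 1 and 2 it recovered 98% and 100%. Of the 153 calls in the simulation 4 were false. A gene that did not pass may therefore still have changed by a small amount. The 57 control probe sets of MCAO 6 were out of place by 12 positions and were realigned. The members, lists and tests were chosen with earlier results of these data known. Full values are given for members that passed with a log2 change of at least 0.5 in size and for the 2 strongest of each role group, and of other pathway genes the 2 strongest each way are named. Promoter windows are from RefSeq (GRCr8), and those printed were chosen after the values were seen. Alternatives were other normalizations, filters, probe set choices, array weights, a replicate block and leaving out each rat. The number of arrays limits the precision.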

Additional observations from a re-analysis of the deposited data

Results flagged for a closer look

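Each varying member was looked at for a rat that lies far from the rest of its group, by Dixon's ratio of the gap to the nearest rat over the whole range. Of 72 groups looked at (36 members, 7 MCAO and 5 Sham rats), 7 held such a rat. Chance gives about 1 in 20 for independent groups. These groups share the same rats, so whether 7 is an excess was not tested.

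MCAO 4 stood apart in Lcat, as the highest of its group at 8.62 (next 7.89), and in Msmo1, as the lowest at 10.32 (next 11.05). MCAO 2 stood apart upward in Elovl5 at 10.78 (next 10.49) and in Lss at 8.14 (next 8.05).

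Sham 1 was the lowest of its group in Lcat at 8.18 (next 8.41), in Insig1 at 9.55 (next 9.81) and in Scd at 7.41 (next 7.60). Without Sham 1 the fall of Scd passed the test (log2 change -0.22, limma adjusted p = 0.0312), and it also passed without MCAO 2 (-0.22, adjusted p = 0.00863). In the other fits that left out 1 rat Scd did not pass (limma adjusted p up to 0.144).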

How the results depend on the processing

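Counts of member genes stayed within 1.5 times the reported 8 higher and 10 lower under quantile normalization, equal 75th percentiles, no filter, a stricter filter (50th percentile), averaged probe sets, no _x_at or _s_at probe sets, near-constant probe sets left out, and array weights. Counts of other pathway genes and of member probe sets stayed within 1.5 times too, for the alternatives run on each. Leaving out 1 rat gave 7 to 9 member genes higher and 7 to 12 lower. A further choice made after seeing the data, the varying probe set with the highest mean, kept all 18 calls and added Abca1 and Sc5d.

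With the replicate number as a block (MCAO 1 to 5 and Sham 1 to 5), 5 members were higher and 5 lower, and Idi1, Cyp51, Msmo1, Srebf1, Apoe, Cyp46a1, Lcat and Acsl5 no longer passed; this fit also uses fewer rats. The deviations of same-numbered rats correlated at 0.32, 0.54, -0.33, -0.05 and 0.16 for numbers 1 to 5, and MCAO 1, 2 and 5 correlated best with the Sham rat of their own number, MCAO 3 and 4 with another. Not every pair exceeded 0.1 and no label ties the numbers to a shared day or litter, so the block was not used for the reported values; whether some numbers mark a shared source was not tested. Cyp51 did not pass without _s_at probe sets (adjusted p = 0.336), which leaves only a near-constant probe set. Averaging with near-constant probe sets brought the change of Srebf1 to -0.26 and that of Cyp51 to 0.16, both still past the threshold. Insig1, Cpt1a and Scd passed with near-constant probe sets left out and with array weights, Fasn with array weights (-0.25, adjusted p = 0.0278), and Scd also under quantile normalization (adjusted p = 0.0419).

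Signs turned only for members that did not pass: Vldlr with averaged probe sets (-0.041), Acsl1 with array weights (-0.016) and Lss under the block (0.0013). Leaving out 1 rat gave -0.0018 to 0.073 for Fdps, -0.070 to 0.0032 for Fdft1, -0.020 to 0.017 for Lss, -0.011 to 0.090 for Hsd17b7, and -0.033 to 0.042 for Acsl1. The actin 3′ minus 5′ difference ranged from -0.083 to -0.048 and passed without MCAO 4.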

Other observations

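Further genes from the list of 69 pathway genes, picked after their values were seen, moved in both directions. They belong to the 7 higher and 11 lower varying genes already counted for that list. Npc2 (higher), Abca2 and Elovl2 (both lower) passed too. The scavenger receptor and fatty acid translocase gene Cd36 was 2.06-fold higher in MCAO (log2 change 1.04 ± 0.20; limma adjusted p = 0.00293), and Plin3, a second droplet coat protein, rose by 0.61 ± 0.11. The elongation dehydratase gene Hacd2 rose by 0.45 ± 0.08 and the desaturase gene Fads3 by 0.37 ± 0.11.

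Among those lower were the neuronal carnitine palmitoyltransferase gene Cpt1c (-0.52 ± 0.10), the phospholipid transfer protein gene Pltp (-0.41 ± 0.09) and the sterol exporter gene Abcg4 (-0.41 ± 0.10). The acyl-CoA synthetase genes Acsl3 (-0.32 ± 0.07) and Acsl6 (-0.30 ± 0.07), the triglyceride synthesis gene Dgat2 (-0.31 ± 0.07) and Scap, which escorts the sterol regulatory element binding proteins (-0.24 ± 0.07), were lower as well.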
